A study of Mus musculus with 6 samples.

Results

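The measurements concern 10 transcription factors of B cell identity and fate, Pax5, Ebf1, Tcf3, Spib, Pou2f2, Pou2af1, Bcl6, Irf4, Irf8 and Prdm1. They were taken by symbol: every probe set annotated to 1 of these genes was used, which gave 13 probe sets among the 12422 non-control probe sets of the array, or 10 of 8251 named genes. The RNA of splenic B cells from adult animals, taken whole, was measured on 6 Affymetrix MG_U74Av2 arrays, 2 for each of 3 groups. The wild type group was the CBA strain. The Xid group was the CBA/N strain, whose Btk, the Tec family kinase downstream of the B cell receptor, carries the R28C substitution. The Btk KO group carried a Btk knockout made in SW129 mice and crossed to CBA for 9 generations. Other differences of either line from CBA cannot be told apart from the change of Btk. A first run of 3 arrays, 1 per group, was followed by a second run with new RNA from new mice. Whether animals were pooled for an RNA is not given in the labels.

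As background, Ebf1 and the E2A proteins encoded by Tcf3 start the B lineage programme in the bone marrow, and Pax5 holds it in place by activating B cell genes and silencing those of other lineages. Oct-2 (Pou2f2) and its coactivator OBF-1 (Pou2af1) act through the octamer element of immunoglobulin promoters, and Spi-B is an Ets factor related to PU.1 that serves mature B cells. Bcl6 and Blimp-1 (Prdm1) repress each other and set the germinal centre state against the plasma cell state. Irf4 and Irf8 are related interferon regulatory factors, of which Irf4 is required for plasma cells and Irf8 is also a factor of monocytes and dendritic cells.

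Upstream sequence was available for 10 of the 10 genes, as 13 windows of 250 bases before an annotated start (RefSeq, GRCm38.p6). The windows of Bcl6 and of the upstream start of Irf8 are shown because these were the 2 genes whose arrays in both mutant lines lay apart from CBA. The window of the downstream start of Irf8 is not shown, and it held neither of the motifs marked here. Capitals mark matches to the letters TTCNNNGAA, a gamma-activated site, and to GAGGAA, an Ets core of PU.1 and Spi-B, both searched on both strands.
Bcl6, upstream start (chr16:23988853-23989102, minus strand): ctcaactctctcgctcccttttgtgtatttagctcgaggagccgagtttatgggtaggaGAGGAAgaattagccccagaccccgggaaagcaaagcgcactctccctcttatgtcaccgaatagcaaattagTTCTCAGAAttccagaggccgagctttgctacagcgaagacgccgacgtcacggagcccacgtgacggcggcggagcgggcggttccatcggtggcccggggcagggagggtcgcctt
Bcl6, downstream start (chr16:23981284-23981533, minus strand): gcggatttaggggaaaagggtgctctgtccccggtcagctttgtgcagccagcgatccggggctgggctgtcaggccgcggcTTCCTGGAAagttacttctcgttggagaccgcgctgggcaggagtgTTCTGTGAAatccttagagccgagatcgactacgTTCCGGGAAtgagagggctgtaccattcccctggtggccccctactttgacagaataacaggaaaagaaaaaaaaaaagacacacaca
Irf8, upstream start (chr8:120736108-120736357, plus strand): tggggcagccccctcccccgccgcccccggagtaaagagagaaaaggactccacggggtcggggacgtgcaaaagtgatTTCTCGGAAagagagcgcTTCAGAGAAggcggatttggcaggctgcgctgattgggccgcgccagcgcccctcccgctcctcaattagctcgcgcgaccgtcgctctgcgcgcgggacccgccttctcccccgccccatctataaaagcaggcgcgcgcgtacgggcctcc

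TTCNNNGAA occurred in 3 of the 13 windows, namely the 3 above, and in 7.02% of 32851 windows of the same length over all genes. These 3 windows belong to 2 genes, so they are not independent. A link of the site to the values of these genes was not tested. GAGGAA occurred in 5 of the 13 windows, 1 each of Pou2f2, Prdm1, Ebf1, Irf4 and Bcl6, against 23.3% of all. Of the other motifs searched, the E2A E-box CAGGTG occurred in 2 windows (Irf8 at its downstream start, and Prdm1) against 17.2% of all, and the paired IRF element (GAAA repeated 2 bases apart) in 1 window of Ebf1 against 2.98%. The octamer ATGCAAAT and the EBF1 palindrome (TCCC and GGGA 2 bases apart) occurred in 0 of the 13 windows, against 1.6% and 0.779% of all. No 2 matches overlapped (0 overlaps). Such matches describe the letters and do not show binding.

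Values are intensities in the authors' scaled units, and differences are log2 differences with their standard error from 1 limma model of the 3 group means. Of the 13 probe sets, 11 were bright enough to be tested. The dimmer Pax5 probe set and the only probe set of Prdm1 lay below the limit, a mean intensity of about 19.8. The brighter probe set of Btk, the targeted gene, measured 276.1 and 173.6 in Btk KO, against 874.1 and 749.8 in CBA and 841 and 643.9 in Xid. Where its probes lie relative to the deleted part is not given. On the Btk KO array of run 1 the 3' Gapdh control gave 10.4 times the signal of the 5' control, against at most 1.61 times elsewhere. Values without that array are given below for some differences and calls.

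No factor passed the threshold of an adjusted p of 0.05 in any comparison (limma, 0 of 11 probe sets). The background shares of all 7453 tested probe sets that passed were 0.0671% in Xid against CBA, 0.174% in Btk KO against CBA, 0.0403% in Btk KO against Xid and 0.148% in both mutant lines against CBA. With the run as a block, 0 of the 11 passed as well, against 0.483%, 2.23%, 0.188% and 1.93% of all probe sets. At an unadjusted p under 0.05 without the block stood 1 probe set in Xid (background 4.43%), 3 in Btk KO (background 8.83%), 1 in Btk KO against Xid (background 3.61%) and 2 in both lines together (background 7.37%). With the block these counts were 2, 5, 1 and 4, against 8.1%, 15.1%, 7.31% and 12.7% of all. The factors that stood there in both lines together without the block were Bcl6, with lower values than CBA, and Irf8, with higher values. In Btk KO, Pax5 joined them with lower values. Counted by overlap alone, both arrays of a mutant line lay apart from both CBA arrays for 4 factor probe sets in Xid (3 higher, 1 lower) and 4 in Btk KO (2 higher, 2 lower). Of all tested probe sets 31.4% did so in Xid (17% higher, 14.4% lower) and 36% in Btk KO (20% higher, 16% lower). Btk KO lay apart from Xid for 3 factor probe sets (1 higher, 2 lower), against 26.5% of all (14.2% higher, 12.3% lower). The plot of intensities by array shows each of these and the other factors.

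**Figure D1:**
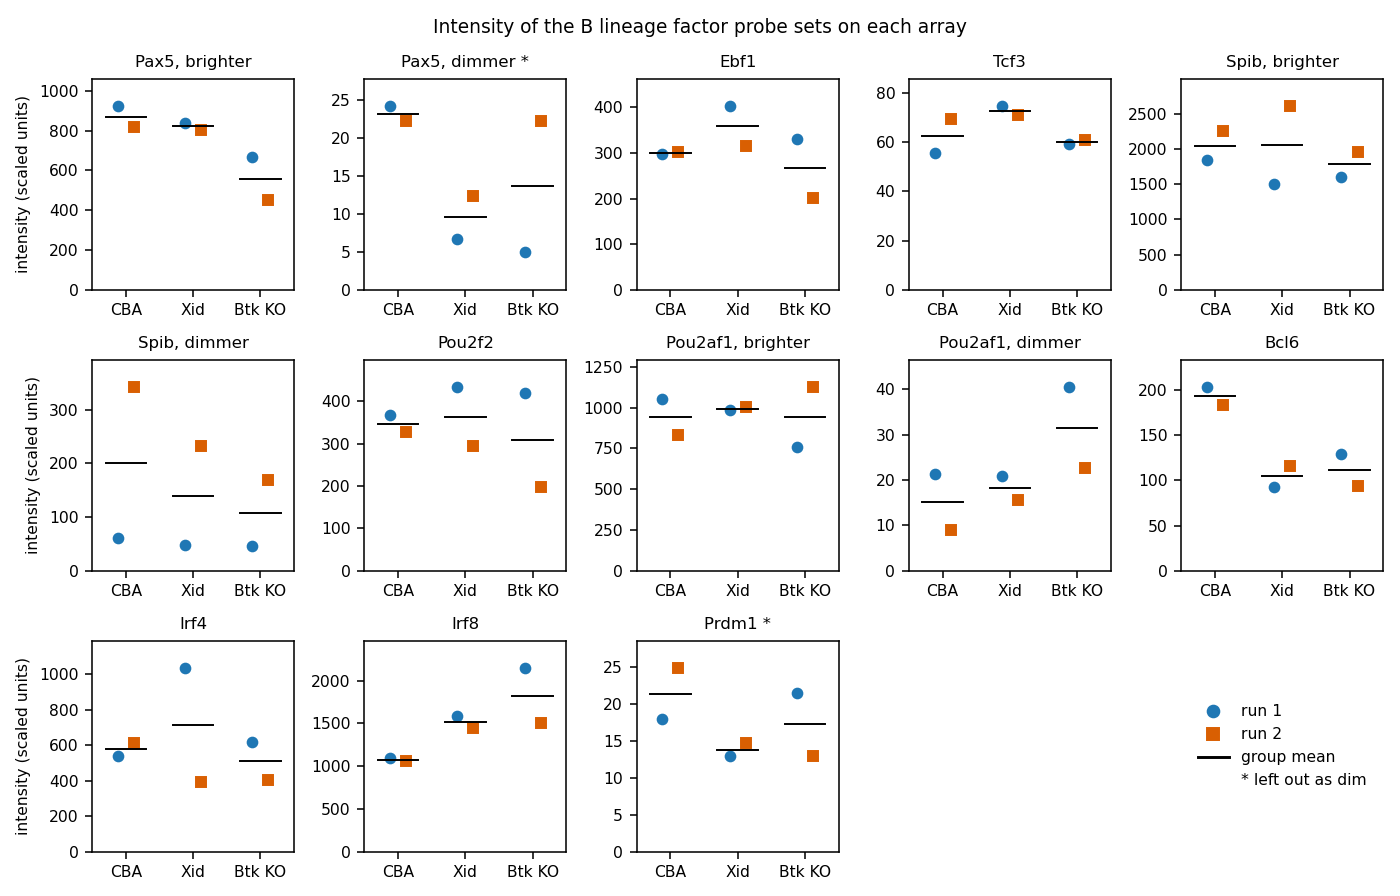
Intensity (scaled units, linear axes from 0) of the 13 probe sets on each of the 6 arrays. Circles are run 1, squares are run 2, bars are group means, and an asterisk marks the 2 probe sets left out as dim. Both CBA arrays lie above all 4 mutant arrays for Bcl6 and below all 4 for Irf8, and the dimmer Spib probe set separates by run.

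Pax5 had its lowest values in Btk KO, and no difference passed. Its brighter probe set measured 921.4 and 816.4 in CBA, 839.7 and 801 in Xid, and 667.4 and 449.4 in Btk KO (run 1 and run 2 in each pair, as in all pairs below). Both Btk KO arrays lay below the 4 others, while the Xid and CBA ranges overlapped. The Btk KO mean of 558 ± 154 (SD, n = 2) was 64.3% of the CBA mean of 869 ± 74.2. The difference was -0.66 ± 0.23 (95% interval -1.21 to -0.11, adjusted p = 0.45, and 0.12 with the run block), at -0.46 and -0.85 within the runs. Without the Btk KO array of run 1 it was -0.94. Against Xid, the Btk KO difference was -0.58 ± 0.23 (adjusted p = 0.998), at -0.86 without the Btk KO array of run 1 and -0.29 without that of run 2. Xid differed from CBA by -0.08 ± 0.23, with an interval of -0.63 to 0.47. The dimmer Pax5 probe set read 24.2 and 22.3 in CBA, 6.7 and 12.4 in Xid, and 5 and 22.3 in Btk KO, and was not tested.

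Most markers of B cells also had lower values in Btk KO. The 7 measured of 8 listed B cell markers had a median of -0.64 in Btk KO and of -0.19 in Xid, where all 7453 probe sets had medians of 0.01 and 0.01. In each line 6 of the 7 were lower than CBA and 1 was higher. None of the 7 passed in either line without or with the run block (0, limma), and 2 had an unadjusted p under 0.05 in Btk KO. Their summed intensity was 20506 and 20762 in CBA, 20799 and 15786 in Xid, and 14651 and 13958 in Btk KO. Both Btk KO sums lay below all 4 others, as the Pax5 values did. In such bulk samples fewer B cells and less RNA per cell cannot be told apart. Cd79a, a signalling chain of the B cell receptor, differed by -0.69 in Btk KO, and Cd22, an inhibitory co-receptor, by -0.66. The part of the B cell share in the Pax5 values was not tested.

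Ebf1, which acts with E2A early in the lineage, measured 298.6 and 301.4 in CBA, 402.4 and 316.1 in Xid, and 330.4 and 201.8 in Btk KO. Both Xid arrays lay above CBA, in run 2 by little, and the Btk KO arrays lay on either side of it. The differences were 0.25 ± 0.27 in Xid and -0.21 ± 0.27 in Btk KO (adjusted p = 0.999 and 0.902). Leaving out the Btk KO array of run 1 gave a Btk KO difference of -0.56, or -0.48 with the run block. Tcf3 had the narrowest range of the 11 over the 6 arrays, from 55.6 to 74.6, a ratio of the highest to the lowest of 1.34. It differed from CBA by 0.21 ± 0.24 in Xid and by -0.04 ± 0.24 in Btk KO, with an interval of -0.60 to 0.52 in the latter. Both Xid arrays of Tcf3 lay above both CBA arrays and both Btk KO arrays.

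The octamer and Ets factors gave no difference from CBA that passed. The brighter probe set of Spib measured 1846.4 and 2250.5 in CBA, 1508.3 and 2605.2 in Xid, and 1598.1 and 1963.5 in Btk KO, with overlapping groups. The differences from CBA were -0.04 ± 0.30 in Xid and -0.20 ± 0.30 in Btk KO (interval -0.91 to 0.50). Run 2 was the higher run in each group.

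The dimmer Spib probe set separated by run far more than by group. It measured 60.9, 47.5 and 46.3 in CBA, Xid and Btk KO of run 1, and 341.5, 231.8 and 169.4 in run 2. Run 2 was higher than run 1 by 2.09 on the log2 scale, and only 18 of the 7453 tested probe sets, or 0.242%, differed as much between the runs. The brighter Spib probe set differed by 0.46 in the same way, a size that 20.9% of all probe sets reached. In both runs CBA had the highest value of this dimmer probe set and Btk KO the lowest. The Btk KO difference was -0.67 ± 0.97 without the run block (adjusted p = 0.91), with a standard error of 0.22 and an adjusted p of 0.19 with it, and -0.36 and -0.99 within the runs. Leaving out the Btk KO array of run 1 gave a Btk KO difference of 0.20, or -0.93 with the run block. The Xid difference was -0.43, at -0.32 and -0.55 within the runs. Chip lot, hybridisation day, RNA preparation and mice all changed between the runs and cannot be told apart here.

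Pou2f2 measured 367.5 and 326.9 in CBA, 432.9 and 293.9 in Xid, and 418.3 and 197.4 in Btk KO. In run 1 both mutant arrays lay above CBA and in run 2 both lay below. Its differences were 0.04 ± 0.36 and -0.26 ± 0.36. The latter was -0.79 without the Btk KO array of run 1, or -0.61 with the run block as well. The brighter probe set of Pou2af1 measured 1052.5 and 829.3 in CBA, 984.5 and 1001.4 in Xid, and 757.9 and 1123.8 in Btk KO. Its Btk KO mean of 941 ± 259 stood beside a CBA mean of 941 ± 158, and the difference of -0.02 had an interval of -0.60 to 0.56. The signs of its 2 runs were opposite, at -0.47 and 0.44. The dimmer Pou2af1 probe set, near the floor at 9 to 40.4, was higher in both Btk KO arrays than in the 4 others (difference 0.85 ± 0.45, adjusted p = 0.67, and 0.32 with the run block). This difference was 0.50 without the Btk KO array of run 1, or 0.79 with the run block as well. It was 0.41 to 1.28 with any 1 array left out and no block. Both Pou2af1 probe sets thus had different signs in Btk KO.

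**Figure D2:**
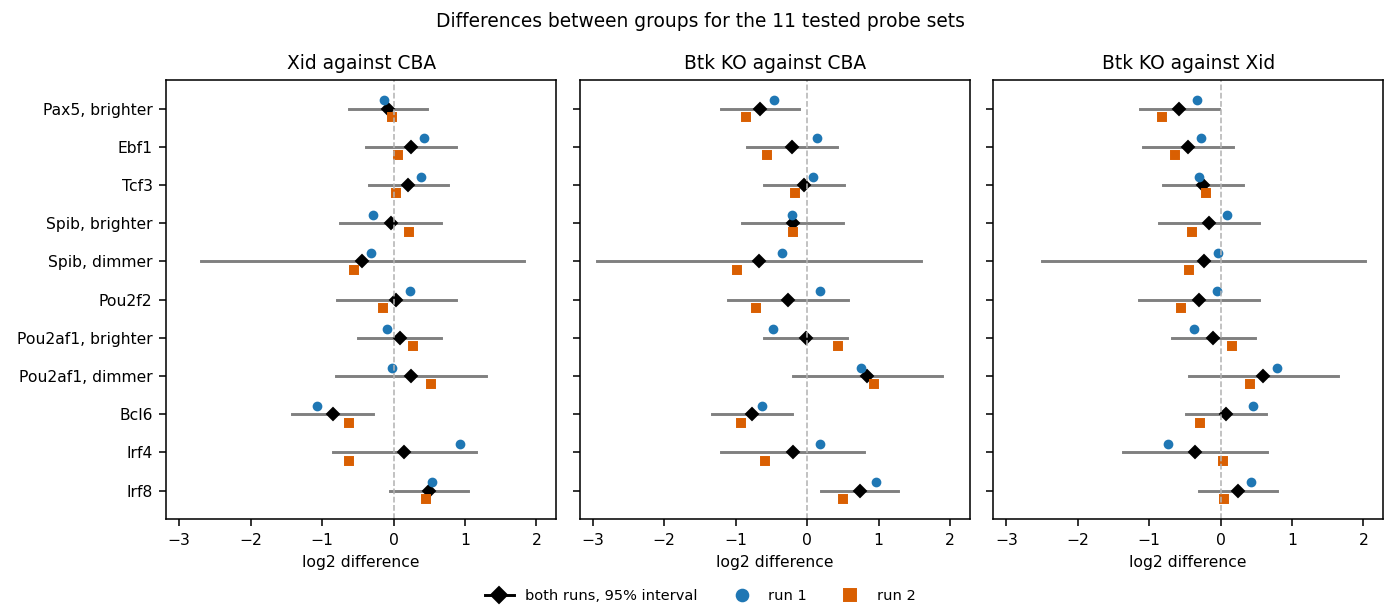
Log2 differences of the 11 tested probe sets in 3 comparisons. Diamonds with lines are the limma estimates with 95% intervals, and circles and squares are the differences within run 1 and run 2. Bcl6 lies below 0 in both mutant lines and in both runs, Irf8 above 0, and Irf4 changes sign between the runs.

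Bcl6, the germinal centre repressor, had lower values in both mutant lines. It measured 203.2 and 183.2 in CBA, 93.1 and 116.3 in Xid, and 129.4 and 94.1 in Btk KO. Both CBA arrays lay above all 4 mutant arrays, and the Xid and Btk KO ranges overlapped. The Xid mean of 105 ± 16.4 was 54.2% of the CBA mean of 193 ± 14.1, and the Btk KO mean of 112 ± 25 was 57.8% of it.

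The Bcl6 differences were -0.85 ± 0.24 in Xid (interval -1.42 to -0.29, adjusted p = 0.59, and 0.25 with the run block) and -0.77 ± 0.24 in Btk KO (interval -1.33 to -0.21, adjusted p = 0.37, and 0.15 with the run block). They share the CBA arrays. Within the runs they were -1.08 and -0.63 in Xid, and -0.63 and -0.92 in Btk KO. For both lines together the difference was -0.81 ± 0.21 (adjusted p = 0.28, and 0.10 with the run block). With the run block and without the Btk KO array of run 1 it was -0.94 and passed (adjusted p = 0.044, within a range of 0.044 to 0.96 over the alternatives). It was the only factor to pass under any alternative. Among the tested factors 2 of 11 had no overlap between CBA and all 4 mutant arrays, 1 lower and 1 higher, against 17.1% of all tested probe sets (7.31% lower, 9.82% higher).

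The span of group means was 0.85 (log2) for Bcl6 and, to these digits, for the dimmer Pou2af1 probe set near the floor, whose span passes that of Bcl6 when 1 in place of 6 is added before the log (its Btk KO difference is then 1.06). For Bcl6, the 5 named genes with the most similar pattern over the 6 arrays, of 7452 probe sets compared, were Recql5, Bcl3, Tcstv1, 4833420G17Rik and Casp6, at root mean square distances of 0.13 to 0.16 (log2). Recql5, a DNA helicase, measured 217.9 and 193.7 in CBA, 98.9 and 99.8 in Xid, and 137.8 and 83.8 in Btk KO. Bcl3, a nuclear relative of the NF-kB inhibitors, measured 220.3 and 249.6, 106.8 and 165.9, and 165.8 and 120.5 in the same order. Similarity over 6 arrays is a description of these samples. The Tcstv1 probe set carries the suffix of those shared within a gene family.

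Prdm1, which encodes Blimp-1, read 18 and 24.9 in CBA, 13 and 14.7 in Xid, and 21.6 and 13 in Btk KO. These values lie near the floor, and the gene was left out of the test. At this signal neither presence nor a difference could be measured.

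Irf4, which is induced by B cell receptor signals and serves plasma cells, varied most within Xid. It measured 541.4 and 611.7 in CBA, 1035.3 and 395.3 in Xid, and 616.6 and 403.2 in Btk KO. The Xid array of run 1 was the highest of the 6 and that of run 2 the lowest. The Xid difference was 0.15 ± 0.43, with 0.93 in run 1 and -0.62 in run 2, and the Btk KO difference was -0.20 ± 0.43 (interval -1.21 to 0.80). The runs differed in sign in both lines.

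Irf8 had higher values in both mutant lines. It measured 1096.2 and 1056.4 in CBA, 1588.4 and 1444.4 in Xid, and 2144.5 and 1499.9 in Btk KO. All 4 mutant arrays lay above both CBA arrays, and the mutant lines overlapped. The Xid mean of 1516 ± 102 was 141% of the CBA mean of 1076 ± 28.1, and the Btk KO mean of 1822 ± 456 was 169% of it. The differences were 0.49 ± 0.23 in Xid (interval -0.05 to 1.04, adjusted p = 0.999, and 0.50 with the run block) and 0.73 ± 0.23 in Btk KO (interval 0.19 to 1.28, adjusted p = 0.37, and 0.094 with the run block). Within the runs they were 0.53 and 0.45 in Xid, and 0.96 and 0.50 in Btk KO. Without the Btk KO array of run 1 the Btk KO difference was 0.48. For both lines together it was 0.61 ± 0.20 (adjusted p = 0.48, and 0.12 with the run block).

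Markers of macrophages and of dendritic cells also had medians above CBA in both lines, while those of B cells had medians below CBA. The 11 measured of 15 listed macrophage markers were all higher than CBA in both lines, with medians of 1.24 in Xid and 1.83 in Btk KO. Without the run block 0 passed in Xid and 2 in Btk KO, Mrc1 (the mannose receptor) and Vcam1 (an adhesion molecule), and with it 5 and 8 passed. At an unadjusted p under 0.05 without the block stood 8 in each line. Their summed intensity was 2501.9 and 3745.4 in CBA, 5670.1 and 8597.9 in Xid, and 9040.5 and 12154 in Btk KO, so the groups did not overlap. Of the macrophage list, Itgam and Marco lay below the limit. The 5 measured of 9 dendritic cell markers had medians of 0.39 and 0.77, and 0 passed in either limma fit, with 0 and 1 at an unadjusted p under 0.05 without the block. Flt3, a receptor of dendritic cell precursors, averaged 236 in Xid and 295 in Btk KO against 173 in CBA. Their sums ran from 378.3 to 559.3 in Xid and from 526.7 to 684.3 in Btk KO, against 291.5 to 423 in CBA. The part of these cells in the Irf8 values was not tested.

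**Figure D3:**
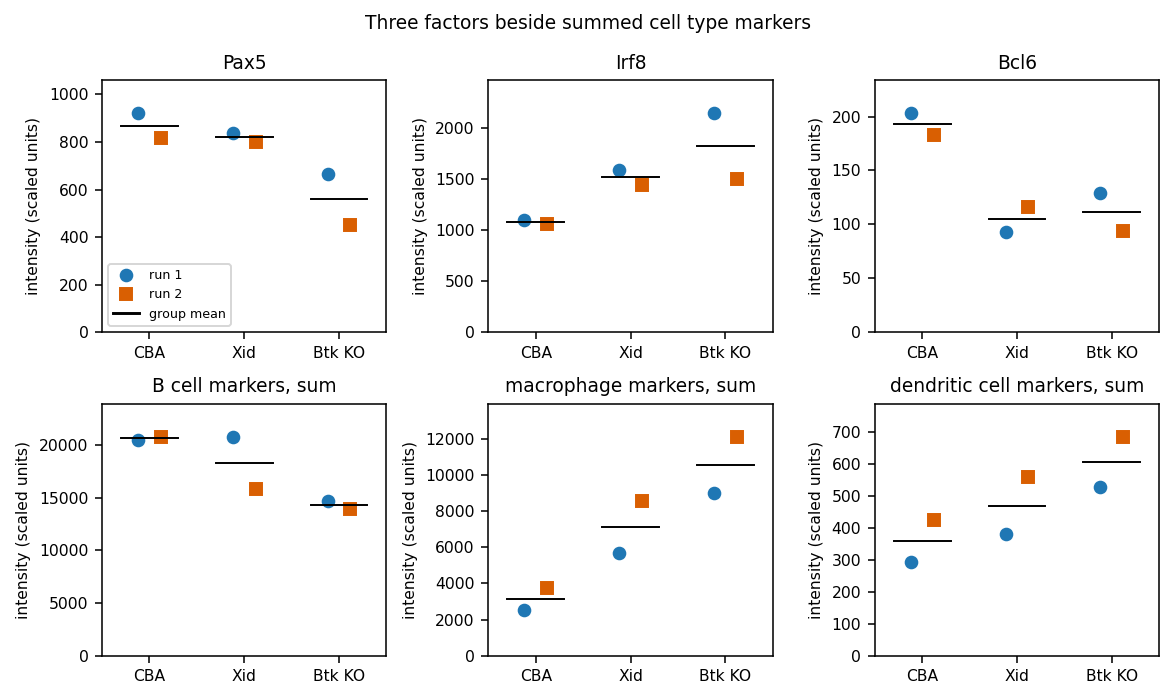
Intensity (scaled units, linear axes from 0) of the brighter Pax5 probe set, Irf8 and Bcl6 on each array, above the summed intensity of the measured B cell, macrophage and dendritic cell markers. Circles are run 1, squares run 2 and bars group means. Pax5 and the B cell sum are lowest in Btk KO, Irf8 and the macrophage sum are lowest in CBA, and Bcl6 is highest in CBA. The B cell sum of Xid is 20799 in run 1 and 15786 in run 2.

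Markers of other cell types of the spleen gave the following values. In Btk KO the medians were 2.48 for 7 neutrophil markers, 1.38 for 7 NK cell markers, 1.43 for 6 erythroid markers and 0.38 for 3 T cell markers. With its array of run 1 left out the T cell median was 0.69, or 0.39 when the run block was added. In Xid the medians were 0.28, 0.45, 0.37 and 0.01 in the same order. Neutrophil sums were 862.8 and 1575.5 in Btk KO, against at most 270.7 on the 4 other arrays. Among the neutrophil markers 2 rose in Btk KO without the run block, Camp and S100a9, and 4 with it. S100a9 did not pass without the block when the Btk KO array of run 1 was left out (adjusted p = 0.076). Of the NK cell markers 0 and 4 passed, of the erythroid and T cell markers 0 in both fits. At an unadjusted p under 0.05 without the block stood 7 of the NK cell markers, 6 of the erythroid and 0 of the T cell markers. Their part in the values of the factors was not tested.

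The factors as a group did not move to one side in Xid, where 7 of 11 probe sets had a positive difference and the median was 0.09. In Btk KO 2 of 11 were positive and the median was -0.20. With its array of run 1 left out the median was -0.054, or -0.32 when the run block was added. With its array of run 2 left out it was -0.060 without the block. The medians over all tested probe sets were 0.01 in both lines. The median size of a difference regardless of sign was 0.21 for the factors and 0.17 for all probe sets in Xid, and 0.26 and 0.23 in Btk KO. In Btk KO against Xid 3 of 11 were positive, with a median of -0.24 beside 0.00 for all.

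Other transcription factors of the lineage were taken from a list of 29, of which 20 were measured. In Xid 0 passed without the run block and 3 rose with it, and in Btk KO 1 rose without it and 2 with it. Their medians were 0.02 and -0.15. Unadjusted p-values under 0.05 without the block were found for 3 and 5 of them. The member that passed without the block was Spic, an Ets factor of red pulp macrophages, which measured 54.5 and 75.7 in CBA, 162.8 and 201.4 in Xid, and 360 and 332.2 in Btk KO. Its groups did not overlap, and it rose by 2.32 ± 0.23 in Btk KO (adjusted p = 0.025) and, with the run block, by 1.41 in Xid (adjusted p = 0.034).

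Id2, an antagonist of the E2A proteins that innate lymphoid and dendritic cells use, measured 110 and 177.2 in CBA, 227.8 and 464.8 in Xid, and 409.2 and 708.1 in Btk KO. Each mutant array lay above both CBA arrays. With the run block Id2 rose by 1.19 in Xid and 1.90 in Btk KO (adjusted p = 0.034 and 0.0053, against 0.89 and 0.17 without it). Id3, a relative of Id2 that B cells express, differed by -0.34 and -0.81 and did not pass.

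Fli1, an Ets factor, rose in Xid alone with the run block (adjusted p = 0.044, and 0.47 without it), from 31 and 51.9 in CBA to 101.9 and 160.3. In Btk KO it read 22.9 and 37.6, and the difference of Btk KO from Xid, -1.92, passed with the block (adjusted p = 0.031, and 0.50 without it). One probe set of Ikzf1, which encodes Ikaros, read 64 and 184.2 in CBA, 28.8 and 77.2 in Xid and 19.3 and 90.5 in Btk KO. For both lines together it fell by 1.16 with the block (adjusted p = 0.047, and 0.81 without it), but the other Ikzf1 probe set differed by 0.04, and without the Btk KO array of run 1 the call was lost (adjusted p = 0.054 with the block). Irf1, induced by interferons, differed by 0.65 in Btk KO and did not pass. Mef2c entered by its brightest probe set, which differed by -1.13 in Btk KO and 0.01 in Xid and did not pass. Its other tested probe sets differed by -1.41, -1.08 and -0.73 in Btk KO, and by -0.42, 0.04 and -0.55 in Xid. Of these the first passed in Btk KO with the block (adjusted p = 0.042, and 0.34 without it). Leaving out the Btk KO array of run 1 gave -0.78 for the brightest one, or -0.72 with the block.

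**Figure D4:**
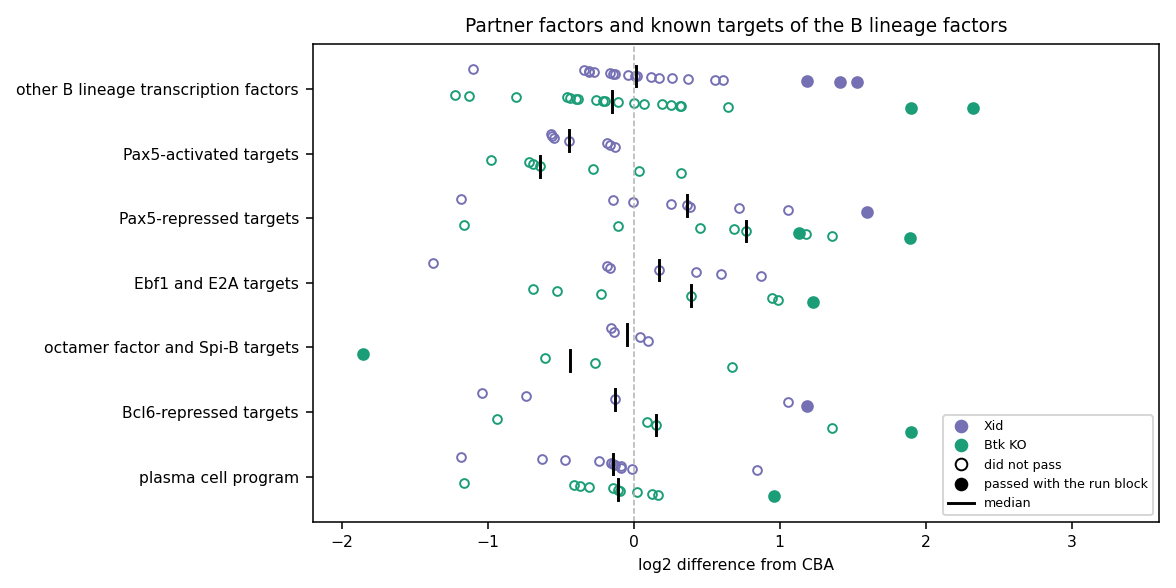
Log2 differences from CBA of the measured genes of 7 lists, with Xid in purple and Btk KO in green. Filled points passed with the run block, open points did not, and black bars are list medians. Some genes stand in more than 1 list. Pax5-activated targets lie mostly below 0, Pax5-repressed targets mostly above it, and in the plasma cell list 10 of 11 genes lie below 0 in Xid and 7 of 11 in Btk KO.

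Genes that Pax5 is known to activate had lower values in most cases. Of 15 listed genes 7 were measured, of which 7 were below CBA in Xid and 5 in Btk KO, with medians of -0.45 and -0.64. None passed without or with the run block (0, limma), and 0 and 2 had an unadjusted p under 0.05 without the block. Cd72, an inhibitory co-receptor, measured 1093.9 and 818.6 in CBA, 742.6 and 646.7 in Xid, and 439.2 and 521.4 in Btk KO. Its Btk KO difference of -0.97 had an adjusted p of 0.19, and 0.051 with the block. Fcer2a, which encodes CD23, and Blk, a Src family kinase, differed by -0.72 and -0.64. Of its measured genes, Cd79a, Blk, Fcer2a and Cr2 are also among the B cell markers above, so the results of these lists are not independent.

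Genes that Pax5 is known to repress had higher values in most cases. Of 11 listed genes 9 were measured, of which 6 were above CBA in Xid and 7 in Btk KO, with medians of 0.37 and 0.77. None passed without the run block (0, limma, with 3 and 5 at an unadjusted p under 0.05), and 1 in Xid and 2 in Btk KO rose with it. Csf1r, the receptor of macrophage colony-stimulating factor, measured 149 and 319.7 in CBA, 551.8 and 822.7 in Xid, and 750.4 and 917.2 in Btk KO. It rose with the block by 1.60 and 1.90 (adjusted p = 0.026 and 0.0076, against 0.47 and 0.14 without it), and a second probe set differed by -0.03 in Xid. Ccr2, a chemokine receptor of monocytes, rose by 1.13 in Btk KO with the block (adjusted p = 0.029, and 0.71 without it), although its arrays of both runs together overlapped those of CBA. Without the Btk KO array of run 1 the call of Ccr2 was lost (adjusted p = 0.069 with the block). Jchain, the joining chain of secreted IgM and IgA, went the other way, at 883.9 and 1165.6 in CBA, 535 and 366.4 in Xid, and 503.4 and 400.9 in Btk KO. For both lines together it fell by 1.18 with the block (adjusted p = 0.034, and 0.13 without it). Csf1r is also a macrophage marker, and the macrophage sums above moved in the same direction. Flt3 is also a dendritic cell marker, and its difference of 0.77 in Btk KO is the median of both this list and the dendritic cell list.

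Known targets of Ebf1 and E2A had medians of 0.17 and 0.39 over 7 measured of 9 genes. Without the block 0 passed in either line (limma, with 3 and 3 at an unadjusted p under 0.05). With it 1 rose in Btk KO, Il7r, the interleukin 7 receptor of B cell precursors and T cells, at 62.7 and 104.6 against 24.8 and 38.8 in CBA (difference 1.23, adjusted p = 0.050, and 0.28 without the block). Without the Btk KO array of run 1 the Il7r difference was 1.37 with the block, and that call was lost. Igll1, of the surrogate light chain, differed by 0.95 in Btk KO and did not pass. With the block and without that array, which leaves 1 Btk KO array, the Igll1 difference was 2.28. A second Igll1 probe set differed by 0.59 in Btk KO and by -0.55 in Xid, where the first differed by 0.43. Vpreb1, part of the surrogate light chain of precursors, averaged 30.5 in Xid and 58 in Btk KO against 26.3 in CBA, a difference of 0.99 in Btk KO that did not pass. Rag1, of the V(D)J recombinase, differed by -1.38 in Xid and -0.22 in Btk KO.

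Of 8 targets of the octamer factors and Spi-B, 4 were measured. In Xid 0 passed in either limma fit (0 at an unadjusted p under 0.05 without the block). Btk was the member that passed, in Btk KO with the run block alone (-1.86 ± 0.27 without it, adjusted p = 0.052, and 0.0053 with it). Kcnn4, a potassium channel, differed by 0.67, Fcgr2b, the inhibitory Fc receptor, by -0.61 and Ms4a1, which encodes CD20, by -0.27 in Btk KO. The list medians were -0.05 in Xid and -0.44 in Btk KO. Since Btk is the deleted gene, the median of the 3 other genes was also taken, and was 0.04 and -0.27.

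Of 9 listed genes that Bcl6 is known to repress, 5 were measured, with medians of -0.13 in Xid and 0.16 in Btk KO. In Xid 2 were higher than CBA and 3 lower, and in Btk KO 4 were higher and 1 lower. Unadjusted p-values under 0.05 without the block were found for 3 in each line, and none passed without the block (0, limma). Id2 was the member that passed, with the run block in both lines. Ccnd2, which encodes cyclin D2, measured 56.1 and 94.9 in CBA, 38.2 and 27.6 in Xid, and 28.2 and 43.9 in Btk KO, differences of -1.04 and -0.94 that did not pass. Ccl3, a chemokine, differed by 1.06 and 1.36, from 16.5 and 43.9 in CBA, and did not pass.

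The plasma cell programme, which Blimp-1 and Irf4 drive, had medians of -0.14 in Xid and -0.10 in Btk KO over 11 measured of 14 genes, and the latter was 0.05 without the Btk KO array of run 1. In Xid 10 were lower than CBA and 1 higher, and in Btk KO 7 were lower and 4 higher. Without the run block 0 passed (limma, with 2 and 2 at an unadjusted p under 0.05). With it Dnajb9, a chaperone of the endoplasmic reticulum, rose in Btk KO, at 215.6 and 253.4 against 119.4 and 114.9 in CBA (difference 0.96, adjusted p = 0.040, and 0.15 without the block). A second Dnajb9 probe set differed by 0.56 (adjusted p = 0.58 with the block), and without the Btk KO array of run 1 the call of the first was lost (adjusted p = 0.055 with the block). Jchain fell in both lines together, as given above. Xbp1, the factor of the secretory programme, averaged 244 in Xid and 255 in Btk KO against 264 in CBA, differences of -0.14 and -0.10.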

How the data were processed

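Total RNA of splenic B cells was hybridised to 1 MG_U74Av2 array per sample, per the file headers. The deposited intensity values, 1 per probe set and array, had been scaled before deposit, since every array has the same 2% trimmed mean, 100.06. The summary method is not given in the sources used here. Per the file headers of the scanner, used as other information on chip lot and hybridisation day, the 3 arrays of a run shared a lot, and the Btk KO array of run 1 had a day of its own.

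Of 12488 probe sets 66 are controls. Of the others 10833 carry 1 symbol, 396 several and 1193 none. For 10817 the gene was found by its number in the gene annotation (GRCm38.p6), and the symbol given there was used. No factor was found among the probe sets with several symbols (0). Intensities were taken to log2 after adding 6, and 4969 probe sets with a mean log2 value below the 40th percentile were left out, which kept 7453. A model of the 3 group means was fitted over all of them with limma 3.58.1 in R 4.3.3 (eBayes with intensity trend, two-sided, Benjamini-Hochberg, threshold 0.05, 3 residual degrees of freedom), and was tested on simulated data. Differences are on the log2(value + 6) scale and understate changes of low genes. A gene of several probe sets enters a list by its brightest kept one. The number of arrays limits the precision. Deviations from the group mean correlated between groups within a run (0.31 to 0.44), and the design text describes the runs, so blocked values stand beside a result where they bear on its call. Motifs were searched in the 250 bases before each start. Figures were drawn with matplotlib 3.10.9.

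The factors and lists were chosen with earlier results of these data known. The rule for naming took every probe set of the factors, list genes that passed in either fit, otherwise up to 4 by the smallest p, and for markers up to 4. The alternatives were the block, 2 scalings, 2 pseudocounts, 2 filters, no trend, only the groups compared, and each array left out. A further alternative combined the block with leaving out the Btk KO array of run 1. The gene lists without the Btk KO array of run 1, and the octamer list without Btk, were added after seeing the data.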

Additional observations from a re-analysis of the deposited data

How the results depend on the processing

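Over all alternatives 0 factor probe sets passed in 62 of 63 counts. The exception was the run block (replicate block) without Btk KO of run 1, where 1 passed in both lines against CBA (Bcl6). Leaving out each array gave 0 in each comparison. Of 443 values of single factors under alternatives, 416 kept their sign and their side of the threshold and 26 changed sign, 21 of these when 1 array was left out. They cover 28 differences, with only Bcl6, Irf8 and Pax5 for Btk KO against Xid and for both lines together. The run block alone, the filters, the trend setting and fitting only the groups compared leave an estimate as it was. So does leaving out an array of a group outside the comparison. In those settings the sign could not change. Whole-array counts of calls ranged from 0 to 76 in Xid, 0 to 166 in Btk KO, 0 to 29 in Btk KO against Xid and 0 to 165 in both lines. Their main values were 5, 13, 3 and 11.

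Other settings than a single left-out array changed 5 signs. In Xid, Spib (brighter) was 0.056 after quantile normalization and Pou2f2 -0.037 after median centring. In Btk KO, Pou2af1 (brighter) was 0.070 after quantile normalization and 0.34 with the replicate block and without Btk KO of run 1, a setting that also gave -0.18 for Bcl6 against Xid. With 1 array left out, the differences in Xid ranged from -0.19 to 0.68 for Pou2af1 (dimmer), -0.084 to 0.26 for Pou2af1 (brighter), -0.23 to 0.32 for Pou2f2, -0.54 to 0.84 for Irf4, -1.62 to 0.75 for Spib (dimmer), -0.43 to 0.35 for Spib (brighter) and -0.17 to 0.0065 for Pax5. In Btk KO they ranged from -0.79 to 0.27 for Pou2f2, -0.56 to 0.14 for Ebf1, -0.51 to 0.10 for Irf4, -1.86 to 0.52 for Spib (dimmer), -0.30 to 0.26 for Pou2af1 (brighter) and -0.19 to 0.10 for Tcf3. Against Xid they ranged from -0.14 to 0.30 for Bcl6 and -0.014 to 0.50 for Irf8.

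For Bcl6 they ranged from -1.01 to -0.70 in Xid and -0.99 to -0.56 in Btk KO, for Irf8 from 0.42 to 0.56 and 0.48 to 0.99, and for Pax5 in Btk KO from -0.94 to -0.38. With 1 array left in a group, that array is assumed to vary like the others. The fits with a single array left out had no run block, so a difference between the runs can enter the estimate. The dimmer Spib probe set differed by 2.09 between the runs, and within each run both lines lay below CBA. Neither the run block alone nor leaving out Btk KO of run 1 alone changed the call of any factor. The causes were not tested.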
